A study of Homo sapiens with 4 samples.

Results

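The 8 genes MSX1, MSX2, DLX1, DLX2, DLX3, DLX4, DLX5 and DLX6 were read by symbol from a table of 25690 gene rows, in which each was found once. They were compared between 2 libraries of wild-type (WT) H9 cells and 2 libraries of H9 cells whose genotype label reads TFAP2A knockout, all collected at day 7. H9 is a human embryonic stem cell line, and the series title gives the tissue as non-neural ectoderm, which lies outside the neural plate and forms skin, placodes and other surface tissues. RNA was measured by sequencing of polyA-selected libraries. The libraries with the knockout label carry TFAP2C in their titles, but TFAP2A in their genotype label and 2AKO in their column names. They are called the libraries labelled knockout here. No label states the clone, the guide, the culture conditions or any agent given. Whether libraries of the same genotype are separate cultures is not stated either, and p-values therefore reflect only how far these libraries differ, which may be technical variation.

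MSX and DLX genes encode homeodomain proteins, transcription factors that recognise a short TAAT-containing DNA core. MSX factors act largely as repressors and are classic targets of bone morphogenetic protein (BMP) signalling at the border of the neural plate, in facial mesenchyme, tooth and limb. DLX genes, the vertebrate relatives of Distal-less, lie as linked pairs that face each other, DLX1 with DLX2, DLX3 with DLX4 and DLX5 with DLX6, and members of a pair often share enhancers and sites of expression. They pattern the pharyngeal arches, and DLX3, DLX5 and DLX6 are known from the non-neural ectoderm and the preplacodal region next to the neural plate.

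The promoter letters of 4 members are shown because they stand on either side of the main result: MSX1, MSX2 and DLX2 fell, and DLX6 did not pass the test. They are the 250 bases before the RefSeq start of each gene in GRCh38.p14, on the gene's own strand: MSX1 at chr4:4859415-4859664 (plus), MSX2 at chr5:174724332-174724581 (plus), DLX2 at chr2:172102901-172103150 (minus) and DLX6 at chr7:97005303-97005552 (plus). Capitals mark matches to GCCNNNGGC (the palindrome bound by AP-2 factors), GGCGCC (a GC-rich element bound by BMP-activated SMAD proteins) and CCAAT, the last read also as ATTGG.
MSX1: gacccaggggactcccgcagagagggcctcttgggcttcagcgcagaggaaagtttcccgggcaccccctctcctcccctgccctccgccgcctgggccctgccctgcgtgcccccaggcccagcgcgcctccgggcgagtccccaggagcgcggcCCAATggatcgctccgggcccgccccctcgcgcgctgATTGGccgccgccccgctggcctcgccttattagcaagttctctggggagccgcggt
MSX2: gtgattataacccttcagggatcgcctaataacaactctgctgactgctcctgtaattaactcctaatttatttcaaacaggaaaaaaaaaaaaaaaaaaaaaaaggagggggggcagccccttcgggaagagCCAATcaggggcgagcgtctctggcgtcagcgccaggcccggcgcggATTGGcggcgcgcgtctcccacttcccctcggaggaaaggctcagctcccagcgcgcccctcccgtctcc
DLX2: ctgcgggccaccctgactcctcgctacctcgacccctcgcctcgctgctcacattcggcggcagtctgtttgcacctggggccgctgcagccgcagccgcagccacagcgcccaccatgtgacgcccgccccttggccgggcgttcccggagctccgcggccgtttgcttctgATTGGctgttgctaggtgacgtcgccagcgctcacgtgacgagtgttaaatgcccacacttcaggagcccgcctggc
DLX6: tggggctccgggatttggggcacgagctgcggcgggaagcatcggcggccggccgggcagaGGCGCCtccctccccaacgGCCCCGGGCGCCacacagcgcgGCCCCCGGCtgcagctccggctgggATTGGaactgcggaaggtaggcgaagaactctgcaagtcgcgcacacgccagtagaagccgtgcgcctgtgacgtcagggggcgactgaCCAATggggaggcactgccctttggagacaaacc
RefSeq windows were matched for 5 of the 8 members, the fifth being DLX1. Of the 5 windows, GCCNNNGGC occurred in that of DLX6 alone, at -170 to -162 and at -148 to -140 from the start, and in 19.8% of 35116 promoter windows of the same length. GGCGCC also occurred in DLX6 alone of the 5, at -189 to -184 and at -164 to -159, the latter overlapping an AP-2 match by a few letters, and in 16.4% of all windows. For homeodomain factors only the longer form TAATTG was searched, on both strands. It was in none of the 5 windows and in 6.7% of all. The shorter core named above was not searched. Its letters can be read in the MSX2 window and, on the other strand, in that of MSX1. The lack of TAATTG is therefore not a lack of homeodomain cores. CCAAT, a box common in promoters that was added after the windows had been read, was in all 5 windows and in 32% of all. These are letters in a short window and do not show where a factor bound.

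Library totals ran from 17838204 to 21797850 counts, and 15643 genes had enough counts to test. TFAP2A, the gene in the genotype label, kept most of its transcript: 171 and 198 CPM (counts scaled to the library total) in WT against 133 and 121 CPM in the libraries labelled knockout (log2 fold change -0.54, SE 0.07). TFAP2C, the gene in the titles, was at 27.5 and 30.6 CPM in WT and at 8.89 and 5.78 CPM in the libraries labelled knockout (log2 fold change -1.99, SE 0.17). Summed over a gene, counts hide the exon each read came from, so neither name is settled by them. Markers of the labelled tissue were present, and 10 of 10 genes of the non-neural and surface ectoderm could be tested. Their summed level was 3375 to 3677 CPM in WT and 2330 to 2410 CPM in the libraries labelled knockout. By the test given in the next paragraph, 7 of them fell, 0 rose and 3 did not pass (median log2 fold change -0.51). TFAP2A itself is among these 7. The shares that fell and rose over all genes tested were 22.3% and 21.9%.

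Of the 8 MSX and DLX genes, 7 could be tested. Of these, 5 fell, 0 rose and 2 did not pass (edgeR quasi-likelihood test, Benjamini-Hochberg adjustment over all genes tested, threshold 0.05). Among all genes tested 22.3% fell and 21.9% rose. All 5 fell by at least 1 on the log2 scale, which 6.77% of all genes tested did, while 4.49% rose by as much. In all 5 the libraries of the genotypes did not overlap, which held in this direction for 36.6% of all genes tested and in either direction for 73.1%. The 7 tested members had a median log2 fold change of -1.58, against 0.00 over all genes tested. The 0 rises rest on the same test, and no member rose with DESeq2 or limma-voom or at an unadjusted p under 0.05. By size, the falls were 32.7-fold for DLX2, 12.7-fold for MSX1, 3.28-fold for DLX3, 2.99-fold for DLX5 and 2.16-fold for MSX2. In bulk RNA, fewer cells that express a gene and less RNA per cell cannot be told apart.

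**Figure D1:**
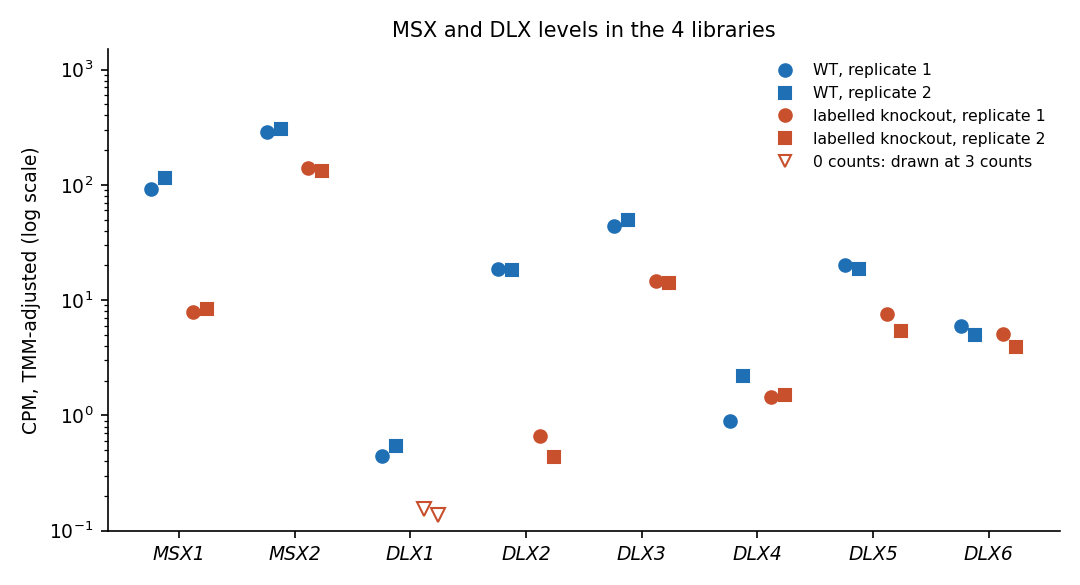
Level of each MSX and DLX gene in CPM on a log axis, with 1 point per library (blue WT, orange labelled knockout, circles replicate 1, squares replicate 2). The orange points lie below the blue for MSX1, MSX2, DLX2, DLX3 and DLX5, mix with them for DLX4 and DLX6, and the open triangles stand for the 0 counts of DLX1.

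MSX1 (chromosome 4, 4861392 to 4865660, plus strand, hg19) is the family member best known from tooth and palate, where its loss causes missing teeth and clefts. It was at 91.8 and 115 CPM in the WT libraries and at 7.94 and 8.34 CPM in those labelled knockout. The lowest WT library was still more than 10 times the highest library labelled knockout. The log2 fold change was -3.66 (SE 0.12, adjusted p = 3.63e-09 in edgeR).

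MSX2 (chromosome 5, 174151575 to 174157902, plus strand, hg19), a factor of skull bone, skin appendages and trophoblast, had the highest level of the 8 genes. It was at 285 and 304 CPM in WT and at 141 and 131 CPM in the libraries labelled knockout. The groups were apart, but by much less than for MSX1 (log2 fold change -1.11, SE 0.06, adjusted p = 1.13e-09 in edgeR). Within a library, the log2 ratio of MSX1 to MSX2 counts was -1.64 and -1.41 (WT) or -4.14 and -3.97 (labelled knockout), a difference of -2.54. A two-sided exact permutation test of this ratio gave p = 0.33, the smallest that 2 libraries against 2 allow, so it cannot pass at this size.

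DLX1 and DLX2 (chromosome 2), whose known sites include forebrain interneuron precursors and the pharyngeal arches, lie 9.76 kb apart. DLX2 (172964166 to 172967478, minus strand, hg19) was at 18.5 and 18.3 CPM in WT and at 0.666 and 0.435 CPM in the libraries labelled knockout. The WT libraries were nearly equal, and the libraries labelled knockout held only 13 and 9.5 counts. Its log2 fold change, -5.03 (SE 0.20, adjusted p = 1.34e-10 in edgeR), was the largest of the 7 tested members and the 39th largest fall of all genes tested. DLX1 (172950208 to 172954401, plus strand) was near the limit of detection in WT, with 8 and 9.5 counts (0.447 and 0.539 CPM), and had 0 counts in both libraries labelled knockout. A count of 0 allows up to 0.154 and 0.138 CPM in those libraries (3 counts each). With 3 counts over the group taken as the upper limit, DLX1 would be 6.79-fold lower. This is a least value that leaves out the counting error of its few WT counts. It did not reach the filter on low counts and so had no test in the main fit, while without the filter its adjusted p was 0.000304.

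DLX3 and DLX4 (chromosome 17) lie 15 kb apart. DLX3 (48067369 to 48072588, minus strand, hg19), a factor of epidermis, hair, tooth enamel and placenta, was at 44.2 and 49.8 CPM in WT and at 14.7 and 14.02 CPM in the libraries labelled knockout. The replicates were close in each group and the groups were well apart (log2 fold change -1.71, SE 0.09, adjusted p = 1.96e-09 in edgeR). DLX4 (48046562 to 48052323, plus strand) was at 0.895 and 2.18 CPM in WT and at 1.43 and 1.49 CPM in the libraries labelled knockout. Both libraries labelled knockout lay between the WT values. The log2 fold change was -0.07 with a 95% interval of -0.87 to 0.73 (adjusted p = 0.898 in edgeR), and it was 0.69 without WT replicate 2 (adjusted p = 0.246) and -0.57 without WT replicate 1 (adjusted p = 0.222), so neither a direction nor a lack of change is shown.

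DLX5 and DLX6 (chromosome 7) lie 9.35 kb apart and together specify the lower jaw. DLX5 (96649702 to 96654143, minus strand, hg19), also a bone factor, was at 19.99 and 18.7 CPM in WT and at 7.58 and 5.41 CPM in the libraries labelled knockout. The groups did not overlap (log2 fold change -1.58, SE 0.15, adjusted p = 1.22e-06 in edgeR). DLX6 (96635290 to 96640352, plus strand) was at 6.01 and 4.99 CPM in WT and at 5.096 and 3.92 CPM in the libraries labelled knockout. The higher library labelled knockout was above the lower WT library, and DLX6 did not pass (log2 fold change -0.29, 95% interval -0.70 to 0.13, adjusted p = 0.249 in edgeR). That interval does not reach a fall of the size fitted for DLX5, whose own interval was -1.90 to -1.26. The position of DLX6 lies wholly inside DLX6-AS1, a long non-coding gene on the other strand that was at 2.68 and 2.13 CPM in WT against 1.82 and 1.67 CPM and did not pass either (log2 fold change -0.47, adjusted p = 0.152). No source used here states whether the counting used strand, so reads of DLX6 and DLX6-AS1 may have been mixed. MSX2P1, a processed copy of MSX2 on chromosome 17, had 1.5 counts in 1 WT library and 0 in the others.

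**Figure D2:**
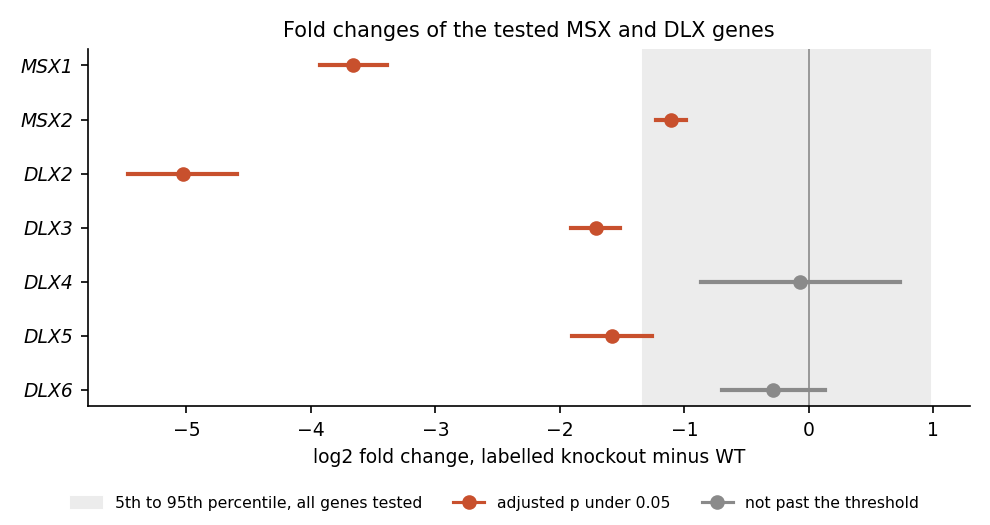
Log2 fold change (labelled knockout minus WT) of the 7 tested MSX and DLX genes, with points for the fitted values and bars for 95% intervals. The grey band spans the 5th to 95th percentile of all genes tested, -1.33 to 0.97, and DLX2 and MSX1 lie far below it.

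Within the linked pairs, the more abundant partner fell and the less abundant partner of DLX3/DLX4 and DLX5/DLX6 did not pass. The log2 ratio of DLX3 to DLX4 counts was 5.54 and 4.48 (WT) or 3.31 and 3.20 (labelled knockout). That of DLX5 to DLX6 was 1.72 and 1.89 (WT) or 0.57 and 0.46 (labelled knockout). Neither ratio overlapped between genotypes. The differences were -1.76 and -1.29 with a pseudocount of 1. For DLX1 to DLX2 the difference ran from 0.61 to 2.58 with the pseudocount and is not read further, DLX1 having 0 counts in the libraries labelled knockout. For each of the 4 ratios, that of the MSX genes included, the exact permutation p was 0.33, also when adjusted over the 4, which is the smallest this design gives.

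Per length, the order of the genes differed between genotypes. Levels were divided by the length of the longest coding GENCODE transcript and are given as CPM per kb. In WT the order was MSX2 (131 CPM per kb), MSX1 (53.2), DLX3 (18.1), DLX5 (13.6), DLX2 (7.51), DLX6 (2.39), DLX4 (0.757) and DLX1 (0.187), and no neighbours in that order overlapped between libraries. In the libraries labelled knockout MSX2 stayed at the top with 60.8 CPM per kb. Next came DLX3 (5.51), DLX5 (4.57) and MSX1 (4.2), of which DLX5 and MSX1 overlapped between libraries. DLX6 (1.96) and DLX4 (0.719) followed, and DLX2 (0.224) stood below DLX4, whereas in WT it had stood above DLX6.

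The summed DLX signal per length was 41.8 and 43.1 CPM per kb in WT and 14.2 and 11.8 CPM per kb in the libraries labelled knockout. DLX3 made up 40.6% and 44.3% of it in WT against 39.8% and 45.7%. DLX5 made up 33.6% and 30.4% against 37.7% and 32.2%. The shares of these genes overlapped between genotypes. DLX2 made up 18.1% and 17.3% in WT against 1.92% and 1.5% in the libraries labelled knockout. DLX6 went the other way, with 6.24% and 5.02% in WT against 15.6% and 14.4%, as did DLX4, with 1.05% and 2.49% against 4.98% and 6.2%. These shares follow from the levels above and are a description with no test of their own.

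**Figure D3:**
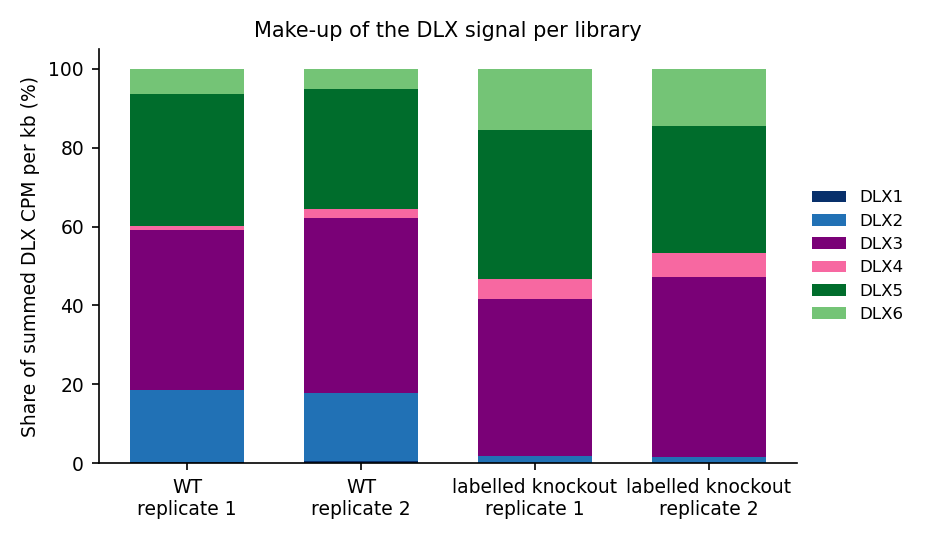
Share of each DLX gene in the summed DLX signal (CPM per kb) of each library, in percent. The DLX2 share is 18.1% and 17.3% in WT against 1.92% and 1.5% in the libraries labelled knockout, while DLX3 and DLX5 keep overlapping shares.

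The tested genes nearest to each locus were read for comparison, and some of these lay more than 1 Mb away. For each of the 5 loci the 3 nearest tested genes on each side were taken by the positions in the table. Of these 30 neighbours, 6 fell, 4 rose and 20 did not pass, so 33.3% were called against 44.2% of all genes tested (22.3% fell and 21.9% rose). METAP1D, 4.62 kb from DLX1, did not pass (5.39 against 5.76 CPM). ITGA6, the integrin alpha 6 gene on the other side of DLX1/DLX2, did not pass either (56.6 against 53.7 CPM), while PDK1 and RAPGEF4 beyond it rose, RAPGEF4 not once WT replicate 2 (adjusted p = 0.0903) or knockout replicate 1 (0.0532) was left out, nor with DESeq2 (0.102). Beside MSX1, the neuronal vesicle gene NSG1 (log2 fold change -0.39) and the syntaxin gene STX18 (-0.28) fell, STX18 not once WT replicate 1 (adjusted p = 0.0799) or knockout replicate 1 (0.0795) was left out, nor with DESeq2 (0.0535). On either side of MSX2, the mitochondrial carrier gene SFXN1 (-0.27), 0.75 Mb away, fell. STC2 (-1.20), which encodes the secreted glycoprotein stanniocalcin and lies 1.40 Mb away, also fell.

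Beside DLX3/DLX4, ITGA3, the integrin alpha 3 gene 60.8 kb from DLX3, rose from 56.1 to 141.3 CPM, a call that ended on leaving out WT replicate 1 (adjusted p = 0.107) or WT replicate 2 (0.212), and also without the filter on low counts (0.0839). FAM117A (log2 fold change 0.19) rose and SLC35B1 (-0.22) fell by small amounts, and each lost its call under several settings: FAM117A with an adjusted p of 0.0684, 0.274, 0.0537 and 0.147 without WT replicate 1, WT replicate 2, knockout replicate 1 and knockout replicate 2, and SLC35B1 with 0.0529, 0.11 and 0.0542 without WT replicate 1, WT replicate 2 and knockout replicate 2. With DESeq2 their adjusted p was 0.193 and 0.112, and FAM117A had 0.0514 with limma-voom and 0.0764 with the replicate block. KAT7, the nearest on the DLX4 side, did not pass (83.97 against 82.7 CPM). Beside DLX5/DLX6 only the mitochondrial carrier gene SLC25A13, 0.68 Mb away, fell (-0.31), and the other 5 of the 6 neighbours did not pass. STC2 was the only neighbour among the 30 that fell by 1 or more on the log2 scale.

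**Figure D4:**
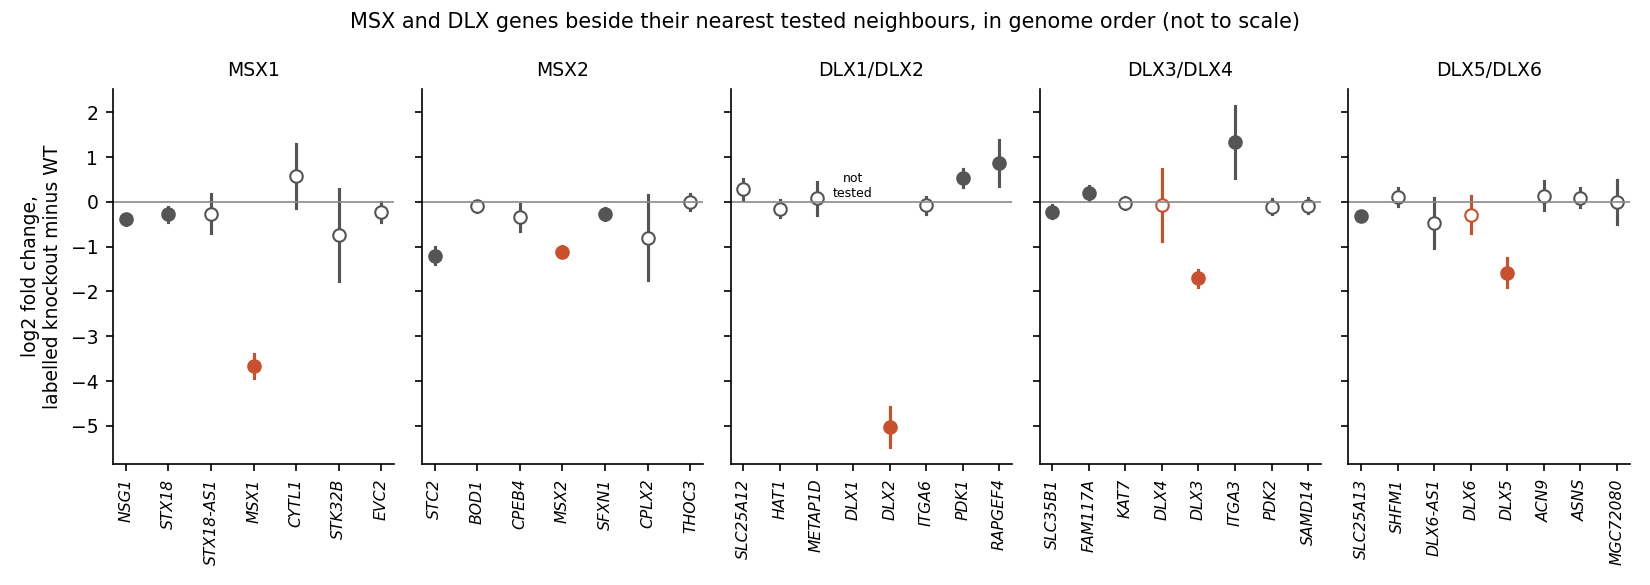
Log2 fold change with 95% interval of each member (orange) and its 3 nearest tested neighbours on each side (grey), in genome order and not to distance. Filled points passed the test and open points did not, and DLX1 was not tested. DLX2, at -5.03, stands between METAP1D and ITGA6, which both lie near 0.

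The genes whose profile over the 4 libraries was most like that of a member were found by the Euclidean distance of centred log2 CPM values among the 11956 genes whose mean level reached 5 CPM. With 4 libraries in 2 groups this likeness is mostly a like fold change, and it is a description with no test. For MSX1 they were TGM4, NRP2 and ADAMTS2, at distances of 0.11, 0.12 and 0.17, of which NRP2, a semaphorin and VEGF co-receptor, was at 387 and 432 CPM in WT and at 32.8 and 34.3 CPM in the libraries labelled knockout. For DLX2 they were ISM1, ATP8B4 and CASR, the calcium-sensing receptor gene, at 0.15, 0.24 and 0.29. For DLX3 they were ELMO1, B3GNT9 and DACT1, at 0.04, 0.07 and 0.08. For MSX2 they were NCAM1, ABCA1 and TANC1, all at 0.03, and for DLX5 DOCK9-AS2, MAN1A1 and NOXA1, at 0.05, 0.09 and 0.11.

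Components of the BMP pathway, the signal best known to induce MSX and DLX genes, included genes called in either direction. Of 12 ligand and receptor genes tested, 5 fell, 3 rose and 4 did not pass (median log2 fold change 0.01, against 0.00 over all genes tested). Over all genes tested 22.3% fell and 21.9% rose, and the counts of this and the following lists are to be read against these shares. GDF6, a BMP-family ligand of dorsal ectoderm, fell from 170.1 ± 12.6 to 49.5 ± 6.22 CPM (SD, 2 libraries each), BMP4 from 69.5 ± 5.38 to 23.4 ± 1.54 CPM and BMP7 from 31.8 ± 0.841 to 17.2 ± 2.51 CPM. BMP5 rose from 8.62 ± 0.165 to 15.8 ± 2.3 CPM. BMP2 rose from 1.21 ± 0.426 to 2.86 ± 0.737 CPM, a call that ended on leaving out WT replicate 2 (adjusted p = 0.058) or knockout replicate 1 (0.0688). BMP6 passed narrowly (19.6 to 15.6 CPM), and not once WT replicate 1, WT replicate 2 or knockout replicate 1 was left out (adjusted p = 0.146, 0.0754 and 0.27). Its call also ended with DESeq2 (0.137), with the replicate block (0.0624) and with the GC trend removed (0.0752). Among receptors, ACVR1 fell (40.5 to 32.2 CPM) and ACVR2B rose (209.8 to 243.5 CPM, adjusted p = 0.101 without WT replicate 1), while BMPR1A and BMPR2, at 64.6 and 81.7 CPM in WT, did not pass, nor did BMPR1B, at 0.889 against 1.64 CPM (log2 fold change 0.90, adjusted p = 0.0583 in edgeR). Genes named in this and the next paragraphs that are not among the 3 largest changes of their list were chosen after their values were seen.

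Of 14 BMP signal transducers and inhibitors tested, 5 fell, 3 rose and 6 did not pass (median log2 fold change 0.09), against 22.3% and 21.9% of all genes tested. The extracellular BMP modulator gene SMOC1 fell most, from 605.9 ± 37.5 to 15.6 ± 4.93 CPM (log2 fold change -5.29, adjusted p = 0.00167 in edgeR). The antagonist gene FST fell from 2.59 ± 0.97 to 0.818 ± 0.107 CPM, the pseudoreceptor gene BAMBI from 179.2 to 128.2 CPM and the ubiquitin ligase gene SMURF1 from 135.0 to 87.3 CPM. NOG, which encodes noggin, rose from 7.29 to 12.6 CPM. CHRD, which encodes chordin, rose from 5.9 to 9.07 CPM, a call that ended on leaving out WT replicate 1 (adjusted p = 0.109) or knockout replicate 1 (0.114), and with DESeq2 (0.051). SMAD5 rose from 104 to 127 CPM, but not after removal of the GC trend (adjusted p = 0.236). SMAD1, SMAD4, SMAD6, SMAD7 and SMAD9 did not pass.

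Among 14 BMP target genes tested, the members not counted, 3 rose, 3 fell and 8 did not pass (median log2 fold change 0.09). These shares are close to the 21.9% and 22.3% of all genes tested. HAND1, a factor of amnion, trophoblast and lateral mesoderm, fell from 338 ± 20.9 to 74.4 ± 3.61 CPM. BAMBI and GATA3 (172.4 to 123.0 CPM, adjusted p = 0.0563 without knockout replicate 2) also fell. ID4, ID3 and ID2, encoding inhibitors of helix-loop-helix factors, rose, with log2 fold changes of 1.29, 0.72 and 0.33, and the number of this list that rose was 6 when the GC trend was removed. Both BMP lists share SMAD6, SMAD7 and BAMBI.

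Of 20 transcription factors of the non-neural ectoderm and its border, 13 fell, 1 rose and 6 did not pass (median log2 fold change -0.52), against 22.3% that fell and 21.9% that rose among all genes tested. The 13 include TFAP2A and TFAP2C, the genes named in the label and the titles, and genes that earlier results had already shown to fall. EYA2 fell from 31.8 ± 5.31 to 3.13 ± 0.143 CPM, PAX7 from 4.35 ± 0.933 to 0.503 ± 0.193 CPM and TFAP2B from 273.9 ± 18.2 to 43.1 ± 3.67 CPM. FOXC1, a forkhead factor of eye and head mesenchyme, was the gene that rose, from 10.8 to 42.5 CPM.

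Among 40 other homeobox genes of the NK-like class, to which MSX and DLX genes belong, only 10 had enough counts to test, and of these 3 fell, 3 rose and 4 did not pass (median log2 fold change 0.00; all genes tested, 22.3% and 21.9%). TLX3, a factor of sensory neurons, fell from 6.14 ± 0.178 to 0.156 ± 0.0391 CPM, while its relative TLX1 rose from 0.268 ± 0.142 to 3.23 ± 0.715 CPM. EMX2, a forebrain and urogenital factor, rose from 1.25 ± 0.0323 to 7.33 ± 3.05 CPM and HLX from 2.67 to 7.54 CPM. NKX3-2 was at 2.53 against 0.935 CPM (adjusted p = 0.0518 without WT replicate 1), and NKX2-5 at 0.732 against 0.181 CPM, and its call ended on leaving out WT replicate 1, knockout replicate 1 or knockout replicate 2 (adjusted p = 0.0858, 0.0653 and 0.0893) and with DESeq2 (0.136). Without WT replicate 1, 5 of the list rose and 1 fell.

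Among the 15 genes linked to DLX factors in the pharyngeal arches that had enough counts, 8 fell, 4 rose and 3 did not pass (median log2 fold change -0.35), beside 22.3% and 21.9% of all genes tested. ALX4, a factor of the frontonasal mesenchyme, fell from 15.3 ± 0.546 to 1.91 ± 0.124 CPM, and its relative ALX1 from 27.8 to 16.8 CPM. EDN1, whose product endothelin 1 sets the lower jaw domain of DLX5 and DLX6 in the arches, was at 0.844 against 0.193 CPM, and its call ended on leaving out WT replicate 1 (adjusted p = 0.0858) or knockout replicate 2 (0.0582) and with DESeq2 (0.0789). GBX2 rose from 0.0983 ± 0.0588 to 3.84 ± 1.16 CPM, NR2F1 from 57.3 to 174 CPM, JAG1 from 18.3 to 27.1 CPM and HAND2, a target of DLX5 and DLX6 in the jaw, from 82.04 to 111 CPM. HAND1 and GATA3 stand in this list too.

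Genes of the tissues in which DLX1/DLX2, DLX5 or DLX3 act later were tested where counts allowed, and their calls are read against the same 22.3% and 21.9%. Of 18 forebrain interneuron genes 6 could be tested, of which 3 rose, ISL1 and MAF among them, and 2 fell, CALB2, which encodes calretinin, from 44.7 ± 6.31 to 2.73 ± 0.744 CPM and SST from 1.57 ± 0.433 to 0.216 ± 0.0515 CPM (median log2 fold change 0.86). GAD1 and GAD2 were at 0.064 CPM or less on average in both genotypes. Of 13 bone and tooth genes 7 could be tested. SPP1, which encodes osteopontin, rose from 2.53 ± 0.174 to 14.01 ± 1.48 CPM, TWIST1 fell from 155 ± 2.77 to 113 ± 5.22 CPM, and 5 did not pass (median 0.06); without knockout replicate 2, 2 rose and 2 fell. Of 12 epidermal genes linked to DLX3 only 3 could be tested. Of these PPL, which encodes the cornified envelope protein periplakin, fell from 74.6 ± 1.61 to 42.8 ± 6.98 CPM and TGM1 from 10.5 ± 0.00404 to 1.35 ± 0.0306 CPM, while KRT10 did not pass (median -0.80).

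Of 10 genes for reported protein partners of MSX and DLX factors, all tested, 4 fell, 4 rose and 2 did not pass (median log2 fold change 0.08; all genes tested, 22.3% and 21.9%). The Groucho-type co-repressor genes TLE1, TLE3 and TLE4 fell, TLE3 from 241 ± 9.44 to 191 ± 0.197 CPM, and their short relative TLE5, listed under its older symbol AES, rose from 102 ± 0.449 to 156 ± 4.21 CPM. LHX2, a LIM-homeodomain factor, rose from 3.24 ± 0.605 to 5.06 ± 0.158 CPM (log2 fold change 0.63, that of TLE5 being 0.61). HIRA (0.27) and PIAS1 (0.23) rose and NDN (-0.17) fell. HIRA had an adjusted p of 0.0591 without WT replicate 2, and LHX2 of 0.163 without WT replicate 2 and 0.0643 without knockout replicate 1. PIAS1 had 0.0959, 0.0994 and 0.0924, and NDN 0.116, 0.0686 and 0.198, without WT replicate 1, WT replicate 2 and knockout replicate 1. With DESeq2, LHX2, PIAS1 and NDN had 0.135, 0.13 and 0.0868, and with the GC trend removed PIAS1 and NDN had 0.229 and 0.0983. The number of the list that rose was 1 without WT replicate 2 and 2 without knockout replicate 1.

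**Figure D5:**
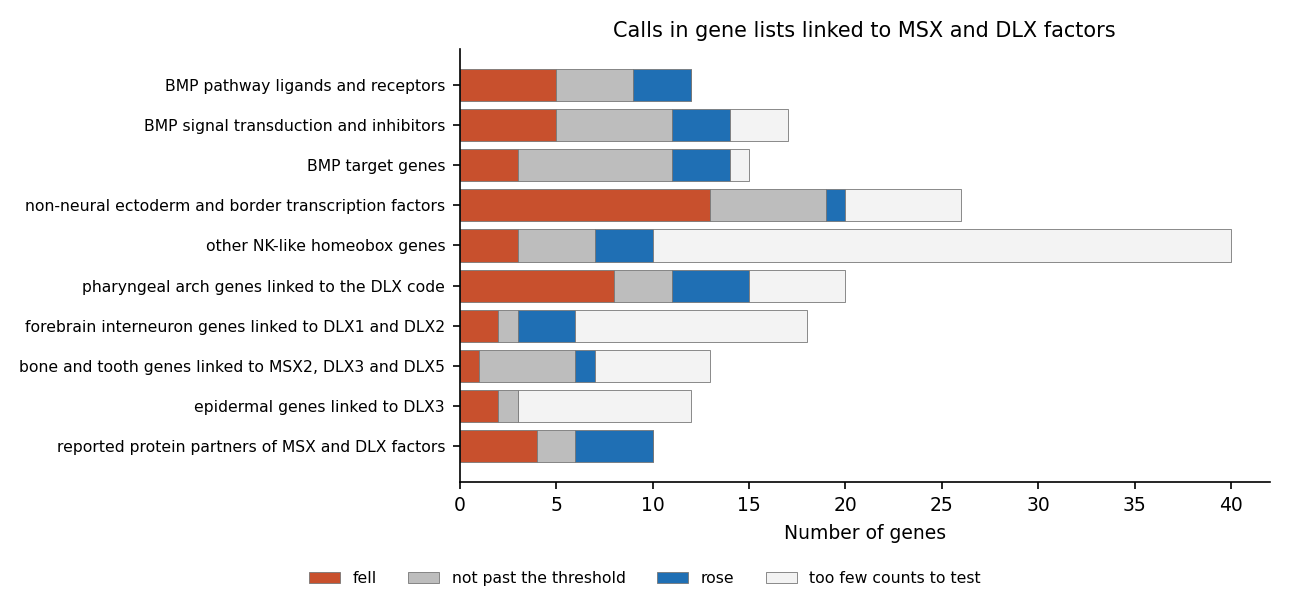
Number of genes in each list that fell (orange), did not pass (grey), rose (blue) or had too few counts to test (pale). The list of non-neural ectoderm and border transcription factors has 13 falls and 1 rise among 20 tested, and 30 of the 40 other NK-like homeobox genes had too few counts.

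Some markers of other cell types were called as well. These calls are to be read against the 22.3% of all genes tested that fell and the 21.9% that rose. Of 7 amnion and trophoblast markers, all tested, 6 fell and 1 rose, and their summed level was 1805 to 1951 CPM in WT and 128 to 195 CPM in the libraries labelled knockout; CGA was at 0 in the latter. Of 6 neural crest markers tested among 9, 4 fell, with a summed level of 377 to 403 CPM in WT and 111 to 126 CPM in the libraries labelled knockout, while SOX10, FOXD3 and PAX3 were under 1 CPM in all libraries. Of 4 cranial placode markers tested among 6, 3 fell (161 to 191 CPM against 74.4 to 81.3 CPM). Of 7 mesenchyme markers 4 fell and 1 rose (10029 to 10373 CPM against 7943 to 9329 CPM), and of 5 endothelium and blood markers tested among 6, 4 fell (59.9 to 60.3 CPM against 19.1 to 19.95 CPM). Of 6 neural ectoderm markers tested among 8, 5 rose and 1 fell, with a summed level of 380 to 391 CPM in WT and 433 to 462 CPM in the libraries labelled knockout, OTX2 and HES5 being under 1 CPM. Of 5 mesoderm and endoderm markers tested among 7, 1 rose and 2 fell (247 to 279 CPM against 289 to 328 CPM), and of 4 pluripotency markers tested among 5, 1 fell (645 to 704 CPM against 443 to 509 CPM). The GABRP call, a fall, ended when either WT library was left out, with log2 fold changes of -4.28 and -4.18. The SOX2 call, a rise, ended likewise, with 1.92 and 1.82. It also ended without the filter on low counts (log2 fold change 1.87, adjusted p = 0.0881 in edgeR). These marker lists share genes with the lists above. TFAP2C, the gene in the titles, is among the 6 amnion and trophoblast markers that fell. The part of these shifts in the falls of MSX1, MSX2, DLX2, DLX3 and DLX5 was not tested.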

How the data were processed

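The authors deposited 1 table of estimated counts per gene for 4 libraries, in steps of 0.5. TopHat, HOMER, DESeq2 and hg38 are named, without roles, per the submitters' processing notes. Versions, annotation and strand use: not given in the sources used here. Table positions are printed as hg19, because 42 rows use hg19-style contig names and just 4.32% of 23020 matched genes lay within 2000 bp of where GRCh38 puts them. Counts were rounded, filtered with filterByExpr, scaled with TMM and tested with edgeR 4.0.16 (glmQLFit, robust, genotype alone; R 4.3.3), with Benjamini-Hochberg adjustment at 0.05. The SE is the log2 fold change over the square root of F. In 1 draw of simulated counts (15633 genes), 100 genes were changed by 1 and 100 by 2 on the log2 scale, all at 1 CPM or more in WT. Of these, 89% and 99% were called, and 9.62% of all calls were false, above the share that the 0.05 threshold aims for. In the data 44.2% of genes tested were called, so the simulated shares need not hold there. Replicates differed by more than sampling noise (chi-square per degree of freedom 4.31 in WT, 4.16 in the libraries labelled knockout).

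The members and lists were chosen with earlier results of these data known. The names rule took the members, TFAP2A to TFAP2C, 3 neighbours a side, 3 nearest profiles, and, per list, up to 3 genes of largest called change (at least 1 CPM, no overlap); profiles used a pseudocount of 0.1 CPM. The table holds no gene lengths, so lengths came from GENCODE release 29, on GRCh38. Promoters are RefSeq, GRCh38.p14, and transcribed bases are not shown. Alternatives were other scaling, filters, tests (DESeq2 1.42.0, limma-voom 3.58.1), rounding, a replicate block, GC trend removal and leaving out each library. Intervals and floors cover counting error only where they come from counts. A few members of the lists count in the totals but are not reported by name here.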

Additional observations from a re-analysis of the deposited data

How the results depend on the processing

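The falls of MSX1, MSX2, DLX2, DLX3 and DLX5 kept their direction and stayed past the threshold under all 16 alternatives, with adjusted p of at most 0.000122 (DLX5). Leaving out a library in turn gave log2 fold changes of -3.82 to -3.50 for MSX1, -1.16 to -1.06 for MSX2, -5.31 to -4.77 for DLX2, -1.80 to -1.63 for DLX3, -1.83 to -1.35 for DLX5 and -0.48 to -0.10 for DLX6, which did not pass under any alternative. DLX4 changed sign, to 0.06 with limma-voom, 0.02 with the replicate block and the GC trend removed, and -0.57 to 0.69 when a library was left out, always short of the threshold. The number of members that fell was 5 or 6, the sixth being DLX1. The DLX1 to DLX2 ratio difference was 1.48, 0.61 and 2.58 with a pseudocount of 1, 0.5 and 3, because the counts were near 0.

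Counts in the lists moved by over 1.5 times as follows. With a filter at 5 CPM, which tests fewer genes, 3 BMP transducers or inhibitors, 1 NK-like gene and 1 interneuron gene fell. With the GC trend removed, 6 BMP targets rose, with and without the block. Without the low-count filter 6 NK-like genes rose. With DESeq2, 2 partner genes rose. Leaving out a library gave 3 to 5 NK-like genes that rose and 1 to 3 that fell, 1 to 2 bone and tooth genes each way, and 1 to 4 partner genes that rose. The cause of these moves, where the filter is not it, was not tested. Neighbours near 0 changed sign without passing: MGC72080 to 0.01 with upper-quartile factors and library totals and 0.02 rounded down, THOC3 to -0.00 with a filter at 5 CPM, and SHFM1 to -0.06 with the GC trend removed, with and without the block. Leaving out a library gave -0.32 to 0.25 for MGC72080, -0.10 to 0.11 for THOC3, -0.18 to 0.02 for ITGA6, -0.19 to 0.01 for SAMD14, -0.07 to 0.03 for KAT7 and -0.02 to 0.19 for METAP1D.

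With the replicate number as a block, 3050 genes rose and 3154 fell, against 3427 and 3492, and no member changed its call. Deviations of same-numbered libraries had a correlation of -0.0382 over 11897 genes. Whether such libraries share a culture or batch cannot be told from this value, which could miss an effect on some genes only.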
